A study of Mus musculus with 10 samples.

Results

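This section describes 6 genes that mark microglia and macrophages: Tyrobp, Cd68, C1qb, Fcer1g, Ctss and Cx3cr1. They were taken by symbol, and each was read by its only probe set annotated with exactly 1 gene symbol. All 6 were found among 22180 measured genes. RNA came from cortices of CD1 mouse embryos at E12-13, and the arrays were Affymetrix Mouse Gene 2.0 ST. The 3 4E-T arrays held RNA that was precipitated with an antibody against 4E-T (replicates 1, 2 and 3). The 3 IgG arrays held RNA that came down with control IgG (replicates 2, 3 and 4), and the 4 input arrays held total RNA (replicates 1 to 4). The labels name no further treatment or allele, and they do not say how many embryos were pooled for an array. The design text calls the arrays of a group biological replicates and counts 3 of each kind, while 4 inputs are listed. The tissue was whole cortex, so every cell type in it could contribute RNA.

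Microglia are the resident macrophages of the brain. They arise from yolk sac precursors and enter the cortex while neurons are being made, when they are still few. There they clear dying cells, and they can be told from neural cells by receptors, adaptors and lysosomal proteins that they share with other macrophages. Eif4enif1 encodes 4E-T, a partner of the cap-binding factor eIF4E that holds mRNAs in translationally repressed particles. A difference between precipitate and input is therefore one of relative RNA level in the sample. Microglia are taken to be a small share of the cells of this tissue, and which cells gave these transcripts was not measured. How much RNA each precipitate yielded was not compared. Fewer such cells and less RNA per cell cannot be told apart in these bulk samples.

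Spi1, the gene of the factor PU.1, is needed for this lineage, and PU.1 binds purine-rich DNA around the letters GAGGAA. RefSeq promoter windows (GRCm38.p6, 250 bases before to 50 after the start) were at hand for 5 of the 6 genes. A search for GAGGAA on both strands, where it reads TTCCTC on the other strand, found it in 3 of these 5 windows, against 28.3% of all 32851 windows of that length. The windows of Cd68, C1qb and Ctss are shown because they hold these letters, which stand in capitals, and that of Cx3cr1 is shown for contrast because it holds none. The window of Fcer1g holds none either. A match in letters describes the window only. The windows lie at chr11:69666121-69666420 (minus strand) for Cd68, chr4:136886151-136886450 (minus) for C1qb, chr3:95526536-95526835 (plus) for Ctss and chr9:120068247-120068546 (minus) for Cx3cr1.
Cd68: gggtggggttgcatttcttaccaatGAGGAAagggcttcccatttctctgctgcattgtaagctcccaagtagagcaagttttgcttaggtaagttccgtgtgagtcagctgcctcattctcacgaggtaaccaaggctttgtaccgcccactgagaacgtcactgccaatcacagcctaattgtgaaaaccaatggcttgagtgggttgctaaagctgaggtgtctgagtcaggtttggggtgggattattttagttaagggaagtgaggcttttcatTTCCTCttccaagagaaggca
C1qb: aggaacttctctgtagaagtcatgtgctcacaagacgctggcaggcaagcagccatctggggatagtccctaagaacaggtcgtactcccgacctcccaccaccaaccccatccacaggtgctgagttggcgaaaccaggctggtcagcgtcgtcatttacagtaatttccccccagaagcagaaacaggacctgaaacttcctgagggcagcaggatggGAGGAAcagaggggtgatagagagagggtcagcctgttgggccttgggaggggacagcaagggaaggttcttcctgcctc
Ctss: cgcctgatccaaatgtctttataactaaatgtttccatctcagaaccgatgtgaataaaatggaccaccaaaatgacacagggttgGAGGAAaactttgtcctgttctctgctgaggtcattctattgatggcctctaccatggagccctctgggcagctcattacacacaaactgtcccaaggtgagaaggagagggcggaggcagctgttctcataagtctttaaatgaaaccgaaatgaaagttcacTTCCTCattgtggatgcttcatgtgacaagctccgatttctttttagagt
Cx3cr1: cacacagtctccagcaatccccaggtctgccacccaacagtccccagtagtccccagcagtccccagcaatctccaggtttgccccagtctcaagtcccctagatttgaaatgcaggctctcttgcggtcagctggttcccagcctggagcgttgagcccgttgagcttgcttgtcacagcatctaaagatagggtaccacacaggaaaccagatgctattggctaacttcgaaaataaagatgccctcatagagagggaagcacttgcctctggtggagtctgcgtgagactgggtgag

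All levels are RMA log2 values, on which a difference of 1 is a doubling of signal. The arrays 4E-T 1 and input 1 lay on a lower scale than the other 8. Their medians over all genes were 4.20 and 4.15, against 4.82 to 4.94 elsewhere, and they are called the lower set. These 2 arrays read exactly the same at 7.52% of probe sets, Itgam (2.55) and Spi1 (3.99) among them. All other pairs of arrays had 0.138% or less. Whether 4E-T 1 and input 1 were normalized apart from the other 8 was not tested. No IgG array belonged to it, so raw means of 4E-T and input are pulled down where those of IgG are not. Each comparison was therefore fitted with group alone and again with membership of the lower set added (the set term), and both results are given. Setting 4E-T against IgG with group alone shifted the median of all genes by -0.19, 4E-T against input by -0.02 and IgG against input by 0.20. The set term brought these medians to 0.03, 0.04 and 0.03. On the inputs the mean of 8 neuronal genes was 8.79 to 9.44, and that of 8 radial precursor genes was 8.21 to 8.65. No other tissue was measured, so these levels do not test the tissue label.

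The input levels came first. Tyrobp encodes DAP12, the adaptor that carries the activating signal of TREM2 and other receptors of myeloid cells. It was at 6.24, 6.68, 6.32 and 7.12 on inputs 1 to 4, a mean of 6.59 ± 0.40 (SD, n = 4). It stood at 68.4% to 77.7% of the way up the ranking of all genes on those arrays. Such a position orients the reader on the scale of the array only, because probe sets differ in how brightly they report the same amount of RNA. Fcer1g encodes the gamma chain that serves activating Fc receptors, and was at 4.83, 5.59, 5.21 and 5.93 (5.39 ± 0.48). C1qb encodes a chain of C1q, the first component of complement, and was at 4.89, 5.97, 5.76 and 5.75 (5.59 ± 0.48).

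The lysosomal genes and the chemokine receptor follow. Cd68, which encodes a lysosomal membrane protein of macrophages, was at 4.71, 5.94, 5.77 and 6.16 on inputs 1 to 4 (5.64 ± 0.64). Ctss, which encodes the protease cathepsin S, was at 4.95, 5.18, 5.24 and 5.92 (5.32 ± 0.42). Cx3cr1 encodes the receptor of fractalkine, through which microglia receive signals from neurons, and was at 4.72, 6.30, 6.19 and 6.22 (5.86 ± 0.76). Input 1 was the lowest of the 4 for every gene of the 6. Input 4 was the highest for Tyrobp, Fcer1g, Ctss and Cd68. On that array the mean of 6 meningeal and mesenchymal genes was 4.04, against 4.86 and 4.82 on inputs 2 and 3, and the mean of 3 erythroid genes was 8.45, against 9.41 and 9.58. The part of such differences in tissue makeup was not tested.

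Other defining markers of the lineage gave the following values on the inputs. P2ry12, a purine receptor of microglia, ranged from 4.49 to 5.99 on the inputs and ranked at 53.8% to 64.2%. Aif1, which encodes IBA1, ranged from 4.37 to 4.98. Csf1r, the receptor for CSF1 and IL-34 on which microglial survival depends, ranged from 3.36 to 4.61, and Spi1 from 3.99 to 4.74. Itgam, which encodes CD11b, ranked at 16.8% to 23.1% of all genes on the inputs, and Ptprc, which encodes CD45, at 11.8% to 21.5%. C1qa and C1qc, the partner chains of C1qb, were at 4.31 ± 0.28 and 4.45 ± 0.63. The table carried no detection calls, so whether a dim probe set lay above background was not tested.

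**Figure D1:**
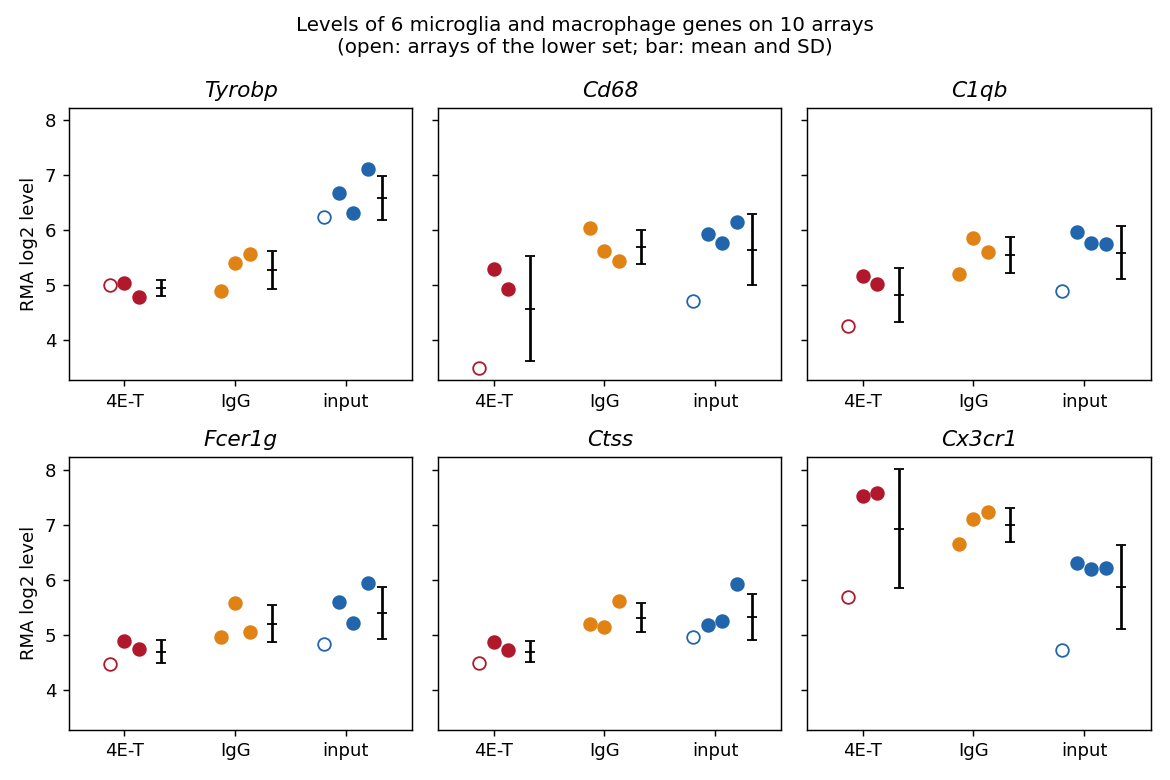
RMA log2 level (vertical axis) of each gene on the 3 4E-T, 3 IgG and 4 input arrays. Filled points are single arrays, open points are the arrays of the lower set (4E-T 1 and input 1), and bars give the group mean and SD. Tyrobp is higher on every input (6.24 to 7.12) than on any precipitate (4.78 to 5.56), while Cx3cr1 is highest on 4E-T 2 and 3 (7.52 and 7.58). On 4E-T 1 Cx3cr1 is at 5.69, and on the IgG arrays it is at 6.65 to 7.24.

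The comparison of 4E-T with input asked how the relative level of these transcripts changed between tissue and 4E-T precipitate. Tyrobp fell with either fit, by 1.64 ± 0.26 with group alone (SE, 3.13-fold lower, limma adjusted p = 0.00427). With the set term 5 genes were lower, Tyrobp, Cd68, C1qb, Fcer1g and Ctss, and Cx3cr1 was 2.31-fold higher. With group alone 1 of the 6 was called lower and 0 higher, where 3.58% and 2.56% of all genes were called, and 5 had an unadjusted p under 0.05 on the lower side and 1 on the higher side (9.03% and 7.77% of all genes). The set term gave 5 lower and 1 higher, where 8.86% and 10.4% of all genes were called. Every 4E-T array lay below every input at 2 of the 6 genes, Tyrobp and Ctss (8.44% of all genes), and above every input at 0 (6.45%). The median of the 6 differences was -0.74 with group alone and -0.68 with the set term, beside -0.02 and 0.04 over all genes.

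For the adaptor genes the arrays read as follows. Tyrobp was at 5.01, 5.04 and 4.78 on 4E-T 1 to 3, so that no 4E-T array reached the lowest input (6.24). Its difference with the set term was -1.63 ± 0.22 (limma adjusted p = 3.93e-04), and it kept its call in each of the 10 fits that left out 1 array, with group alone (highest adjusted p = 0.0322) and with the set term (0.00477). Between arrays of equal number it was lower by 1.23, 1.64 and 1.54 log2 units in pairs 1, 2 and 3 (differences of -1.23, -1.64 and -1.54). Fcer1g was at 4.46, 4.88 and 4.73 on the 4E-T arrays, where 4E-T 2 overlapped input 1. Its difference was -0.70 ± 0.28 with group alone (adjusted p = 0.194) and -0.66 ± 0.20 with the set term (0.0382). That call was lost in 6 of the 10 fits that left out 1 array. These were the fits without any one of the 3 4E-T arrays or of inputs 1, 2 and 4, with adjusted p between 0.0576 and 0.178. Without 4E-T 1 or without input 1, the set term fits the other array of the lower set alone. Both of these fits therefore equal that of the 8 arrays outside the lower set.

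C1qb was at 4.26, 5.17 and 5.02 on 4E-T 1 to 3, below the 3 brighter inputs but not below input 1. The difference was -0.77 ± 0.31 with group alone (adjusted p = 0.196) and -0.70 ± 0.16 with the set term (0.00850). It lost the set term call without 4E-T 3 (0.0556) and kept it in the other 9 fits. Cd68 was at 3.50, 5.29 and 4.93, the widest spread of the 6 genes in 4E-T after Cx3cr1. It differed by -1.07 ± 0.42 with group alone (adjusted p = 0.194) and by -0.95 ± 0.18 with the set term (0.00257), and that call was kept in all 10 fits without 1 array (at most 0.0218). Ctss was at 4.49, 4.86 and 4.73, below every input. Its difference of -0.63 ± 0.25 with group alone was not called (0.207). It passed narrowly with the set term, at -0.60 ± 0.19 (0.0497), and it kept that call in 2 of the 10 fits without 1 array (0.0352 without IgG 4 and 0.0474 without input 2; from 0.0522 to 0.194 in the others).

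Cx3cr1 moved the opposite way. It was at 5.69, 7.52 and 7.58 on 4E-T 1 to 3, so that 4E-T 2 and 3 lay above every input while 4E-T 1 lay between input 1 and the others. The difference was 1.07 ± 0.47 with group alone (adjusted p = 0.266) and 1.21 ± 0.16 with the set term (3.15e-04). Within the lower set alone 4E-T 1 was 0.97 above input 1, a single difference with no test, and in the 8 other arrays the difference was 1.31 (limma adjusted p = 0.00139). The set term call was kept in all 10 fits without 1 array (adjusted p at most 0.00394).

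The equal replicate numbers of 4E-T and input met the criterion for pairs, and the blocked fit changed calls. Outside the lower set, arrays of unequal number correlated about as highly (0.186 to 0.269) as those of equal number (0.240 and 0.277). With the replicate number as a block, Cd68 (-0.97, limma adjusted p = 0.00279), C1qb (-0.70, 0.0161), Ctss (-0.46, 0.0295) and Cx3cr1 (1.24, 7.63e-04) were called beside Tyrobp (-1.50, 5.71e-04). Fcer1g was not (-0.61, 0.0742). Number 1 is carried by the lower set alone, so the block contains the set term. These are 5 of the 6 genes, where the blocked fit called 20.3% of all genes. In the 8 arrays outside the lower set 4 genes were called, Tyrobp (-1.79), Cd68 (-0.84), C1qb (-0.73) and Cx3cr1, where 16.1% of all genes were. Median centring of the arrays also gave 4 (12% of all genes).

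**Figure D2:**
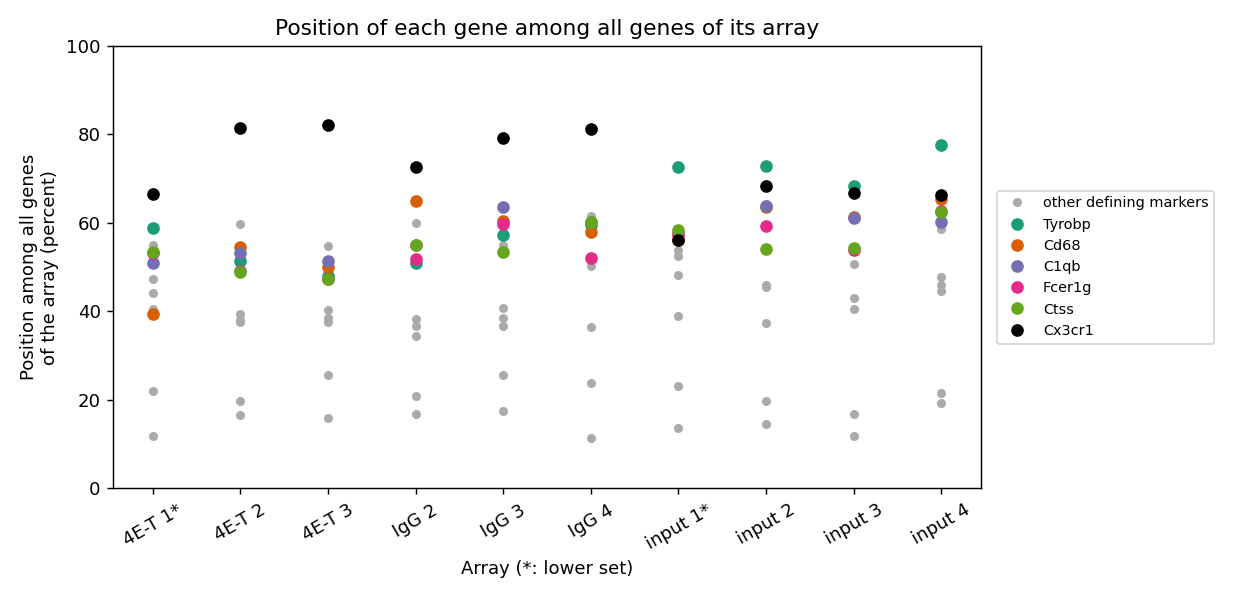
Position of each gene among all 22180 genes of an array, in percent from the dimmest (vertical axis), on each of the 10 arrays. Coloured points are the 6 genes, and grey points are Csf1r, P2ry12, Aif1, Itgam, Ptprc and Spi1. Cx3cr1 stands at 66.6%, 81.5% and 82.1% on 4E-T 1, 2 and 3, at 72.6% to 81.3% on the IgG arrays and at 56.2% to 68.3% on the inputs. Tyrobp stands at 48.0% to 58.9% on the 4E-T arrays, 51.0% to 59.6% on the IgG arrays and 68.4% to 77.7% on the inputs.

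The comparison of IgG with input measured how the same transcripts behaved in a precipitate without the 4E-T antibody. Tyrobp fell here too, by 1.31 ± 0.26 with group alone (SE, 2.48-fold lower, limma adjusted p = 0.0118) and by 1.36 ± 0.23 with the set term (0.00165). Its IgG arrays were at 4.89, 5.39 and 5.56, all below the lowest input. The call with group alone was lost without IgG 2 (adjusted p = 0.0683), and the set term call was kept in all 10 fits without 1 array. Cx3cr1 was at 6.65, 7.10 and 7.24 on IgG 2, 3 and 4, above every input. It differed by 1.13 ± 0.47 with group alone (0.221) and was called 1.64-fold higher with the set term (0.71 ± 0.16, 0.00978), in all 10 fits without 1 array as well.

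The remaining 4 genes were not called in IgG over input with either fit. Their differences under the set term were -0.33 ± 0.21 for Fcer1g, -0.30 ± 0.18 for Cd68, -0.26 ± 0.16 for C1qb and -0.12 ± 0.20 for Ctss, with limma adjusted p from 0.319 to 0.770. With group alone it was -0.19 ± 0.28, 0.05 ± 0.42, -0.04 ± 0.31 and -0.01 ± 0.25 for the same genes. For each of these 4 the IgG and input arrays overlapped. In all, 1 of the 6 genes was called lower and 0 higher with group alone, where 3.99% and 1.45% of all genes were, and 1 lower and 1 higher with the set term, where 10.5% and 6.14% were. Both counts were 1 as well at an unadjusted p under 0.05 (8.58% lower and 9.27% higher among all genes) and for arrays without overlap (8.23% and 14.1%). The 8 arrays outside the lower set and median centring each gave 2 genes, Tyrobp and Cx3cr1, where 15.6% and 12.3% of all genes were called. The comparisons of 4E-T and of IgG with input share the input arrays, so the lower Tyrobp and the higher Cx3cr1 in both are not independent of each other.

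The comparison of 4E-T with IgG sets the antibody against its control, and there limma called 0 of the 6 genes with group alone or with the set term (1.35% and 10.5% of all genes were called). It called 0 in the 8 arrays outside the lower set (8.62%) and after median centring (6.81%) as well. On the lower side 3 genes, Cd68, C1qb and Ctss, had an unadjusted p under 0.05 with group alone, as had 7.07% of all genes, and 0 on the higher side, against 5.61%. Every 4E-T array lay below every IgG array at 4 genes, as it did at 14.5% of all genes, and above at 0, against 7.02%. Cd68 was at 3.50, 5.29 and 4.93 in 4E-T, against 6.03, 5.62 and 5.43 in IgG. C1qb was at 4.26, 5.17 and 5.02 in 4E-T, against 5.20, 5.85 and 5.60 in IgG. These 2 and the following 2 are the genes without overlap. Fcer1g was at 4.46, 4.88 and 4.73 in 4E-T, against 4.96, 5.58 and 5.05 in IgG. Ctss was at 4.49, 4.86 and 4.73 in 4E-T, against 5.19, 5.13 and 5.60 in IgG. For all 4 the highest 4E-T array was 4E-T 2, which is outside the lower set. Setting 4E-T 1 aside could not create an overlap, and no share of all genes was computed without it. The gap was narrow for C1qb, 5.17 on 4E-T 2 against 5.20 on IgG 2.

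With the set term each difference of 4E-T from IgG was smaller in size than that from input, and the change in size was not tested. Cd68 differed with the set term by -0.65 ± 0.20 (limma adjusted p = 0.0587), Ctss by -0.48 ± 0.22 (0.203), C1qb by -0.44 ± 0.18 (0.159), Fcer1g by -0.32 ± 0.23 (0.448) and Tyrobp by -0.27 ± 0.25 (0.585). With group alone these were -1.12 ± 0.45, -0.62 ± 0.27, -0.73 ± 0.33, -0.51 ± 0.30 and -0.34 ± 0.28, to be read against the median of -0.19 over all genes. Cd68 was called with the set term without IgG 4 (0.0372) and C1qb without IgG 2 (0.0352), and neither in any other fit without 1 array. Tyrobp, which of the 6 genes differed most from input, overlapped between 4E-T and IgG. For Cx3cr1 the sign depended on the lower set: -0.07 ± 0.51 with group alone and 0.49 ± 0.18 with the set term (0.103), neither called.

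**Figure D3:**
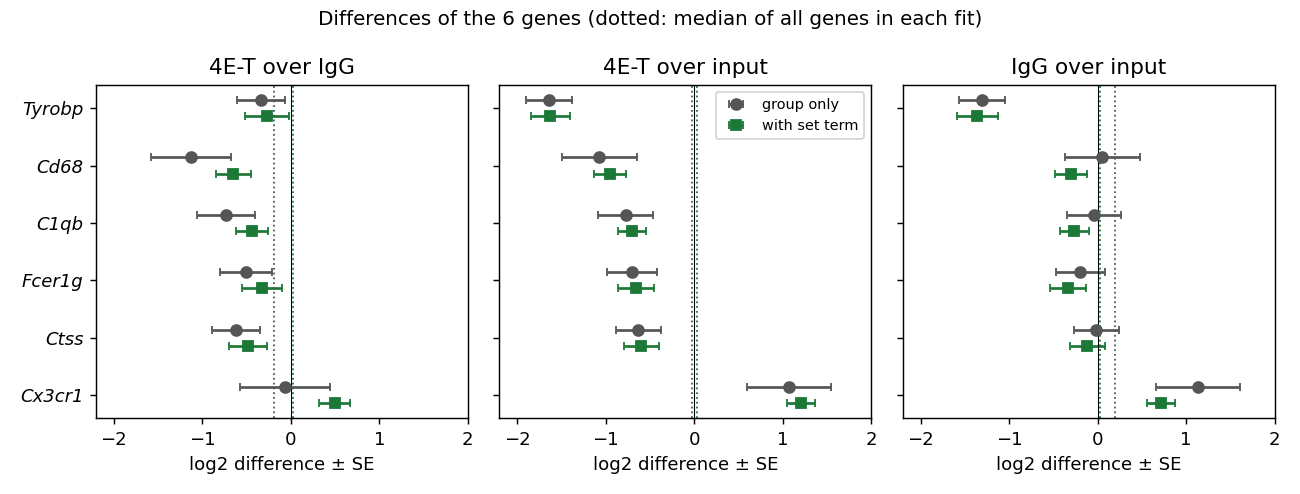
Log2 difference and SE of the 6 genes (horizontal axis) for 4E-T over IgG, then 4E-T over input, then IgG over input. Grey circles are the fit with group alone, green squares the fit with the set term, and dotted lines the median of all genes in each fit. In 4E-T over input 5 genes lie at -1.63 to -0.60 with the set term and Cx3cr1 at 1.21, and in 4E-T over IgG no gene passes the test.

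Related genes were taken from a list of 70, of which 65 were measured by a single-symbol probe set. Of these 65, 1 was called higher and 1 lower in 4E-T over input with group alone, where 2.56% and 3.58% of all genes were. The set term gave 3 and 3, where 10.4% and 8.86% of all genes were called. Their median with the set term was -0.05, beside 0.04 for all genes. In 4E-T over IgG 0 were called with group alone and 3 with the set term, all higher, where 1.35% and 10.5% of all genes were called. With group alone 2 were higher and 4 lower there at an unadjusted p under 0.05, as were 5.61% and 7.07% of all genes. In IgG over input 3 were lower with group alone (3.99% of all genes) and 4 with the set term (10.5%), and 0 higher with either (1.45% and 6.14%).

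All calls among the 3 ligand genes were in comparisons with 4E-T. Csf1, a ligand of the Csf1r protein, was at 5.74, 6.21 and 5.11 on 4E-T 1 to 3, against 4.29, 4.70 and 4.96 in IgG and 4.47, 4.29, 4.78 and 4.54 in input, with no overlap of 4E-T with either. It was higher in 4E-T than in input by 1.17 ± 0.27 with group alone (limma adjusted p = 0.0248). Against IgG it was higher by 1.03 ± 0.28 with the set term (0.0342) and was called neither with group alone (0.116) nor in the 8 arrays outside the lower set (0.0778). Cx3cl1, which encodes fractalkine, the ligand of the Cx3cr1 protein and a product of neurons in the brain, was at 5.25, 6.03 and 5.43 in 4E-T, against 4.23, 5.14, 4.96 and 4.67 in input. It was higher than in input by 0.87 ± 0.19 with the set term (0.00586), not with group alone (0.82 ± 0.27, 0.107), and was not called against IgG in either fit (0.138 with the set term). Il34, the other ligand of the Csf1r protein, differed from input by -0.13 ± 0.19 with the set term.

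Of 18 surface receptors none was called by limma in any of the 3 comparisons with either fit. An unadjusted p under 0.05 was reached with the set term by 1 on the higher and 1 on the lower side in each comparison with 4E-T, and by 0 in IgG over input. The share of all genes at that limit was not computed with the set term. At the adjusted limit the set term called 10.4% of all genes higher and 8.86% lower in 4E-T over input. Under that fit the differences of 4E-T from input were -0.07 ± 0.15 for Csf1r, -0.04 ± 0.19 for P2ry12, -0.06 ± 0.15 for Trem2, whose protein signals through DAP12, 0.12 ± 0.14 for Tmem119 and 0.02 ± 0.17 for Ptprc. Over all 18 receptors these differences ranged from -0.45 to 0.39, with a median of -0.06 beside 0.04 for all genes. Below the median of all genes lay 15 of them, and 3 lay above it. The 7 complement genes, the 4 Fc receptor genes, among them partners of the Fcer1g product, and the 7 genes of signalling below the adaptors held 0 calls likewise. In 4E-T over input 1, 1 and 0 of them reached an unadjusted p under 0.05 in the fit with the set term, on the lower side. There C1qa was at -0.08 ± 0.14, C1qc at -0.38 ± 0.15 (adjusted p = 0.118), Itgam at 0.18 ± 0.14 and Syk, the kinase recruited by both adaptors, at -0.05 ± 0.18.

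The 14 lysosomal and secreted genes included calls in all 3 comparisons with the set term: 2 higher in 4E-T over IgG, 2 lower in 4E-T over input and 4 lower in IgG over input. Of all genes 10.5% were called in the first, 8.86% were lower in the second and 10.5% lower in the third. Cst3, which encodes the cathepsin inhibitor cystatin C and is also made by neural cells, was at 9.59, 9.34 and 9.56 in 4E-T, against 10.38, 10.67, 10.87 and 10.83 in input. With group alone it was lower by 1.19 ± 0.21 in 4E-T (a difference of -1.19, limma adjusted p = 0.00677) and by 1.63 ± 0.21 in IgG (-1.63, 0.00120). The set term gave -1.18 ± 0.16 (3.46e-04) and -1.67 ± 0.16 (7.36e-05). Ctsz, a cathepsin gene, was lower than in input with the set term in 4E-T (-0.83 ± 0.15, 0.00220) and in IgG (-1.21 ± 0.15, 3.38e-04). Ctsb, another cathepsin gene, was lower in IgG than in input (-0.98 ± 0.15 with the set term, 9.94e-04) and higher in 4E-T than in IgG with the set term (0.59 ± 0.16, 0.0385), where it was called neither with group alone (0.47 ± 0.23, 0.443) nor in the 8 arrays (0.0768). Ctsc was lower in IgG than in input with the set term (-0.87 ± 0.27, 0.0485), not with group alone (0.203) or in the 8 arrays (0.0901). It was higher in 4E-T than in IgG with the set term (1.06 ± 0.30, 0.0423) and in the 8 arrays (0.0397), not with group alone (0.240). Ctss thus had a sign opposite to Ctsb and Ctsc in 4E-T over IgG, where it was not called.

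In the other classes, of 7 and 5 genes, 2 genes were called, both in 4E-T over input with the set term. Of all genes 10.4% were called higher and 8.86% lower there. Ly86, which encodes the MD-1 protein of myeloid cells, was lower by 0.87 (-0.87 ± 0.19, limma adjusted p = 0.00743). Sall1, a factor of microglia that cortical precursors express as well, was higher by 0.82 ± 0.16 (0.00327) and ranged from 9.45 to 10.13 on the inputs. Aif1 (-0.49 ± 0.19, 0.105) and Spi1 (-0.23 ± 0.22, 0.576) were not called, although every 4E-T array lay below every input for Aif1.

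**Figure D4:**
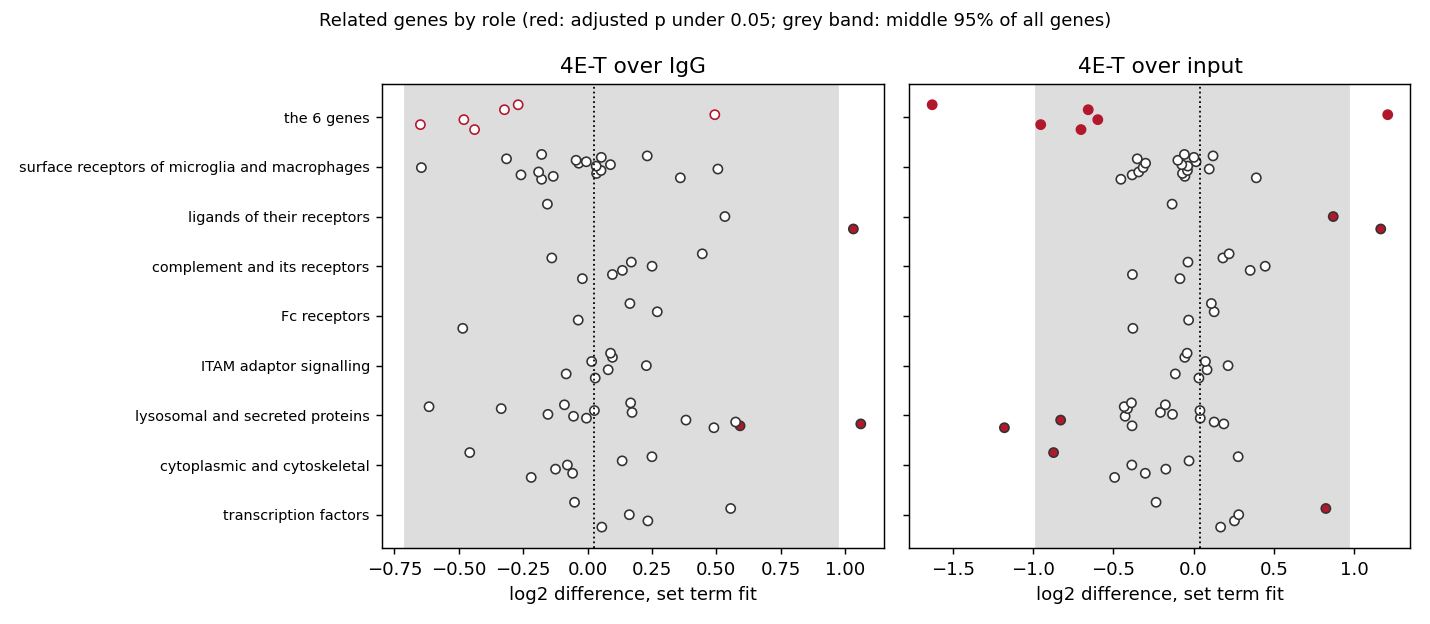
Log2 difference with the set term (horizontal axis) of the 6 genes and of 65 related genes by role, in 4E-T over IgG and 4E-T over input. Filled points have an adjusted p under 0.05, the grey band holds the middle 95% of all genes and the dotted line is their median. In 4E-T over input Cd68, C1qb, Fcer1g and Ctss lie inside the band, from -0.95 to -0.60, and Tyrobp (-1.63) and Cx3cr1 (1.21) lie outside it.

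Markers of other cells gave the following values beside these results. In 4E-T over input with the set term 0 of 7 granulocyte and lymphocyte genes, 0 of 5 pericyte genes and 0 of 6 meningeal and mesenchymal genes were called. An unadjusted p under 0.05 was reached by 0, 2 and 0 on the higher side and by 0, 0 and 1 on the lower side. Of all genes 10.4% were called higher and 8.86% lower in that fit, and the share at the unadjusted limit was not computed. Of 9 endothelial genes Kdr was higher (1.37) and Emcn lower (-0.69). The mean level of the granulocyte and lymphocyte list was 2.90 to 3.86 on the 4E-T arrays, 3.71 to 3.75 on the IgG arrays and 2.75 to 3.87 on the inputs. The low ends in 4E-T and input are the arrays of the lower set. Among cells that make up most of the tissue, 4 of 8 radial precursor genes were higher and 1 lower in 4E-T over input, and 2 of 8 neuronal genes were higher and 1 lower. Of 3 erythroid genes 1 was lower. In IgG over input with the set term 4 of 9 endothelial genes, 1 of 5 pericyte, 1 of 6 meningeal and mesenchymal, 1 of 3 erythroid, 1 of 8 radial precursor and 2 of 8 neuronal genes were lower, and 1 radial precursor and 2 neuronal genes were higher. Of all genes 10.5% were lower and 6.14% higher in IgG over input with the set term. The part of other cells in the results was not tested.

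The genes most like the 6 in profile were found across arrays. After each array was centred on its median, the mean of the 6 genes correlated across the 10 arrays at r = 0.969 with Krt15, 0.953 with Fabp3, 0.952 with Cacna1a, 0.930 with Bckdha and 0.922 with Olfr657. Predicted genes, clones and small RNAs were left out by name. These values are the highest of the other genes, they follow the differences between the groups, and they are given as a description. Krt15 ranged from 2.93 to 4.46 over the arrays and Olfr657 from 1.71 to 3.65, while Fabp3, which encodes a fatty acid binding protein, ranged from 7.03 to 8.89.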

How the data were processed

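RNA of 3 4E-T precipitates, 3 IgG precipitates and 4 inputs was measured on 10 arrays. The authors deposited log2 intensities. RMA and Affymetrix Expression Console are named in the submitters' processing notes. The sources used here gave no software version and no genome build. Probe sets with exactly 1 symbol in the platform annotation (23521 of 41345) gave 22180 genes, the probe set with the highest mean being kept. Dim genes were kept, and precision is limited by the number of arrays. The p-values set each difference against the spread between arrays within the groups. This spread is estimated over the 3 groups together and moderated by that of all genes. The fits with group alone and with the set term take the arrays as independent.

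All genes were fitted together by limma 3.58.1 (lmFit, then eBayes) under R 4.3.3 with a term for group. Calls were made at an adjusted p under 0.05 (Benjamini-Hochberg, over all genes). The set term marks 4E-T 1 and input 1. The fit with group alone was also run on simulated data, in which no array lay on a lower scale. The fits with the set term or with the replicate block were not run on such data. Plots used Python 3.11.15 and matplotlib 3.10.9. The 6 genes, the gene lists, the set term and the other alternatives were chosen with earlier results of these data known. Of the related genes 14 were named whatever their test and the others only where called. The fits that left out 1 array with the set term were added after the values were seen.

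Deviations from the group means of 4E-T and input arrays of equal number correlated across genes at 0.623, 0.240 and 0.277, above the criterion of 0.1 in each pair, so these numbers were taken as pairs. Unequal numbers outside the lower set gave 0.186 to 0.269, so the check does not single out equal numbers there. Those of IgG and input correlated at -0.0230, 0.0798 and 0.318, and 4E-T and IgG share 2 numbers only, so neither was.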

Additional observations from a re-analysis of the deposited data

Results flagged for a closer look

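Cx3cr1 on input 1 stood apart from the other inputs. It read 4.72 there, against 6.30, 6.19 and 6.22 on inputs 2, 3 and 4, and the gap to the nearest was 0.93 of the whole range, above Dixon's critical value for 4 samples. The other 5 genes had no such gap in input. Chance passes this limit in about 1 of 20 groups, and all 6 genes were tried. The gap was computed on the levels as deposited, not relative to the array medians. Input 1 belongs to the lower set, and relative to the median of all genes on its array Cx3cr1 was at 0.57 on input 1 and at 1.42, 1.27 and 1.31 on inputs 2, 3 and 4.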

How the results depend on the processing

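Processing decided how many of the 6 genes were called. In 4E-T over input the count was 1 with group alone, 6 with the set term, 4 in the 8 arrays, 4 with median centring and 5 with the replicate block, and without 1 array it ranged from 1 to 6. In IgG over input it was 1 with group alone and 2 with the set term, in the 8 arrays, with median centring and with the replicate block, and 0 to 2 without 1 array, the 0 being without IgG 2. In 4E-T over IgG it was 0, and 1 with the replicate block (Cd68, -0.67, limma adjusted p = 0.0491), and 0 to 1 without 1 array. A prior variance that follows level, a filter that kept 11090 brighter genes, all 6 among them, and averaged probe sets changed none of these counts. Without input 1 and with group alone 4 genes were called in 4E-T over input, and without 4E-T 1 there were 2. Of all 22180 genes these fits called 1933 and 2005, and the medians of all genes were -0.20 and 0.22. Each of these 2 fits keeps 1 array of the lower set. The ranges without 1 array cover fits with group alone and with the set term. Those with group alone called 371 to 2005 of all 22180 genes in 4E-T over input, and those with the set term 2703 to 4679. In IgG over input these ranges of all genes were 444 to 1866 and 2612 to 3471. In 4E-T over IgG they were 90 to 672 and 930 to 2268. Of all genes, the blocked fit called 2454 in 4E-T over IgG, against 299 with group alone, and 4120 in IgG over input, against 1206. Some uncalled values changed sign. Cx3cr1 in 4E-T over IgG was at 0.49 with the set term, 0.55 in the 8 arrays, 0.13 with median centring and 0.53 with the replicate block, and from -0.39 to 0.62 without 1 array. Cd68 in IgG over input was at -0.30, -0.26, -0.11 and -0.30 under the same settings, and from -0.47 to 0.22 without 1 array. There C1qb ranged from -0.41 to 0.13 and Ctss from -0.26 to 0.19. The cause of these changes was not tested. The table has 3 or 4 arrays a group and no detection calls, and no limit of detection was computed.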
